A study of Caenorhabditis elegans with 12 samples.

Results

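Loss of the double-stranded RNA-binding protein RDE-4 was measured as its average effect over 2 genetic backgrounds of *C. elegans*, WT and the long-lived *age-1* mutant. All 12 mRNA libraries of the series entered the comparison. The 6 libraries from worms that carry the *rde-4(ne301)* mutation, 3 of *rde-4* and 3 of *age-1; rde-4*, were set against the 6 that do not, 3 of N2 (WT) and 3 of *age-1*. A model with 1 term for the *age-1* genotype and 1 for the *rde-4* genotype was fitted to each gene, and its *rde-4* term is the change reported here, as a log2 fold change with its standard error (SE). Both *age-1* strains carry *age-1(hx546)*, an allele that moderately lowers insulin/IGF-1 signalling (IIS), and *ne301* is used by the study as a null allele. Each library came from an independently grown population of young adult hermaphrodites at 20 °C, collected on the first day of adulthood before eggs were visible inside them. Each genotype was 1 strain, and the labels do not say whether the mutants were the strains outcrossed to N2 that the study lists. The loss of RDE-4 and anything else fixed in the *rde-4* strains therefore cannot be told apart. The whole worm was sampled, so fewer cells of a type and less RNA per cell cannot be told apart either.

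RDE-4 works with Dicer to cut double-stranded RNA into small interfering RNAs, both in RNAi against introduced double-stranded RNA and in silencing of the worm's own genes. The endogenous branch has primary small RNAs bound by the Argonaute ERGO-1 in oocytes and embryos, and primary small RNAs bound by the paralogous Argonautes ALG-3 and ALG-4 during sperm formation. Both kinds lead RNA-dependent RNA polymerases to make secondary small RNAs antisense to the target. Genes that lose small RNAs of this branch can lose silencing, while some ALG-3/4 targets need them to be expressed.

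The *rde-4* transcript itself (T20G5.11, WBcel235 chromosome III from 10217302 to 10218646) was at 201, 163 and 176 CPM (counts relative to a library's total, with that total corrected by edgeR's TMM factor) in WT replicates 1 to 3 and at 149, 138 and 149 CPM in *age-1*. It was at 31.5, 28.7 and 32.0 CPM in *rde-4* and at 25.4, 29.2 and 29.8 CPM in the double mutant. The 6 mutant libraries therefore lay apart from the other 6, as their labels say, with an *rde-4* term of −2.46 (SE 0.08, adjusted p = 1.77e-09). The *age-1* transcript had a term of −0.02 (SE 0.13, adjusted p = 0.986). Libraries held 74501098 to 82446102 counts, which leaves counting error small for all but the rarest transcripts, and populations of 1 strain differed by far more than sampling noise. Averaged on the log2 scale and centred on the mean of all 12 libraries, 35 sperm genes that are not major sperm protein (MSP) genes stood at −1.42, −0.36 and −1.06 in WT and between −0.53 and 0.73 in the other strains. Markers of early embryos, centred likewise, were lowest in *age-1* replicate 2 (−1.03) and double mutant replicate 1 (−1.01) and highest in double mutant replicate 2 (1.18).

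More genes were higher than lower without RDE-4 in the additive model, and the higher genes moved further. Of 16741 genes tested, 420 passed (2.51%), 291 of them higher (1.74%) and 129 lower (0.771%), at an adjusted p under 0.05 from edgeR's quasi-likelihood test. The higher genes had a median log2 fold change of 1.76, and 250 of the 291 changed more than 2-fold. The lower genes had a median of −0.57, and 12 of the 129 changed more than 2-fold. The higher genes were also rarer transcripts, with a median level of 4.36 CPM against 45.9 CPM for the lower genes and 6.28 CPM for all genes tested. At an unadjusted p under 0.05 the numbers were 1089 (6.5%) and 1147 (6.85%), and with the sperm gene level of each library as a covariate 598 were higher and 787 lower at the adjusted threshold, so the balance of directions turned. The number of calls depended on single libraries: 168, 167, 160 and 158 genes were higher without WT replicates 2 and 3 and *age-1* replicates 1 and 3, and 38, 73, 60 and 41 were lower. Without *rde-4* replicates 1, 2 and 3 and double mutant replicate 2 in turn, 56, 82, 51 and 66 were lower.

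Every one of the 420 called genes moved in the same direction in both backgrounds. All 3 mutant libraries lay beyond all 3 others in both backgrounds for 264 of the 291 higher genes and 107 of the 129 lower genes, where 2.14% and 1.92% of all genes tested had such separated groups upwards and downwards. These shares follow in part from the test that called the genes. The higher genes had the larger change in WT more often than in the *age-1* background. Their median was 2.43 between *rde-4* and WT and 1.16 between the double mutant and *age-1*, and 242 of 291 had the larger change in WT. The lower genes had medians of −0.53 and −0.50, and 67 of 129 had the larger change in WT. No called gene had a difference between backgrounds at an adjusted p under 0.05 when this was tested as an interaction with edgeR. Over all genes tested 9 had a larger and 10 a smaller value in the *age-1* background (0.0538% and 0.0597%). At shares this small, none among 420 genes does not set the called genes apart. The call by the average term also favours genes without such a difference. Without adjustment, 140 higher and 16 lower genes had such a difference at p under 0.05 (3.8% of all genes tested had a larger and 8.17% a smaller value in the *age-1* background at that threshold). DESeq2 called this difference for 25 and 6 of them. With the sperm gene level of each library as a covariate, 21 higher and 11 lower genes had it at an unadjusted p under 0.05, in place of 140 and 16.

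**Figure D1:**
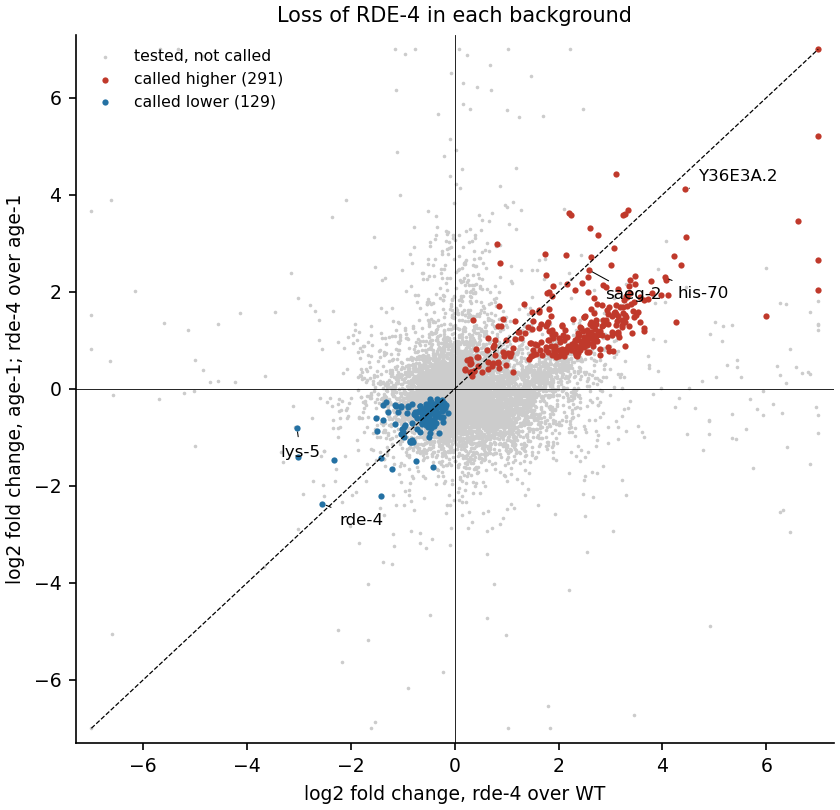
Change of each gene without RDE-4 in the WT background (horizontal axis, log2 fold change of *rde-4* over WT) and in the *age-1* background (vertical axis, log2 fold change of the double mutant over *age-1*), with 16741 genes as grey points and the 291 higher and 129 lower genes of the *rde-4* term in red and blue. Values beyond 7 are drawn at the edge, which touches 4 called genes. Most red points lie below the dashed line of equal change, while *saeg-2*, Y36E3A.2 and *rde-4* lie near it.

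The backgrounds share no libraries, so each can be read against the other. Of 607 genes higher in *rde-4* than in WT (3.63% of genes tested), 508 or 83.7% were above 0 in the *age-1* background, where 41.2% of all genes were. At an unadjusted p under 0.05, 210 or 34.6% were higher there, against 5.22% of all genes. Of 145 genes lower in *rde-4* than in WT (0.866%), 36 or 24.8% were lower in the *age-1* background at that threshold, against 5.82% of all genes. In the other direction, 39 of 53 genes (73.6%) higher in the double mutant than in *age-1* (0.317% of genes tested) were higher in the WT background at an unadjusted p under 0.05, against 9.46% of all genes. Of 18 that were lower (0.108%), 8 or 44.4% were lower in the WT background by the same threshold, against 4.96%. Across all 16741 genes Pearson's r between the changes in the 2 backgrounds was 0.15 and Spearman's rho was 0.07, and in the 13064 genes that averaged at least 50 normalized counts r was 0.29. Genes are not independent replicates, and levels of sperm and embryo genes differed between populations. Averaging added 38 higher and 73 lower genes that neither background called alone, among them *irg-4*, *gcy-18* and 7 histone genes on the higher side and *acdh-1*, *ech-6*, *vha-6* and *ifb-2* on the lower. It also left out genes that 1 background called. Of the 607 higher and 145 lower genes of the WT background, the *rde-4* term called 246 and 48. Of the 53 and 18 of the *age-1* background it called 41 and 12.

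The mRNA changes were next set beside the small RNAs. From small RNA libraries of these strains, the study lists genes whose antisense small RNAs were depleted in *rde-4*, relative to WT, and 918 of these 1014 genes passed the filter on low counts. The study describes these libraries as enriched for products of Dicer, primary small RNAs above all, so the list does not measure loss of secondary ones. Of the 918, 139 were higher and 2 were lower as mRNAs in the *rde-4* term, which is 15.1% and 0.218%. Their median log2 fold change was 0.64, against −0.03 for all genes tested. The 139 make up 47.8% of the 291 higher genes, whereas the list holds 5.48% of genes tested. For 244 genes whose antisense small RNAs were increased, 4 mRNAs rose (1.64%) and 2 fell (0.82%), near the 1.74% and 0.771% of all genes tested, with a median of −0.04. The list is a choice made by the study on these strains. Its 139 higher genes became 84, 81, 86, 83 and 91 without WT replicates 2 and 3, *age-1* replicates 1 and 3 and double mutant replicate 1.

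The depleted genes did not move alike. The study marks part of them as targets of ERGO-1 or of RRF-3, another protein of endogenous RNAi, by small RNA data of others. The mark does not say which of the 2 applies to a gene, and 31 marked genes were tested. Of these, 12 were higher (38.7%) and none was lower (18 and 0 at an unadjusted p under 0.05, 14 and 0 with DESeq2), and the median log2 fold change was 0.74. The change was about as large in both backgrounds, with medians of 0.77 in WT and 0.80 in *age-1*. The median level of the 31 genes in a library, centred over the 12 libraries, lay between −0.60 and −0.20 in the 6 libraries with RDE-4 and between 0.33 and 0.65 in the 6 without it. The groups do not overlap, and within strains the SD was 0.15. The other 887 depleted genes had a median of 0.63, with medians of 1.33 in the WT background and 0.11 in the *age-1* background. A difference between backgrounds at an unadjusted p under 0.05 was seen for 419 of these 887 genes and for 1 of the 31 marked genes. Of all genes tested, 3.8% had a larger and 8.17% a smaller value in the *age-1* background at that threshold. The marked genes are few and were rarer, with a median of 1.67 CPM against 5.77 CPM for the 887. Of the 31, 11 averaged under 50 normalized counts, and of the 887, 80 did, so a difference is harder to detect in the marked genes. The level of the 887 genes was −1.69, −0.36 and −1.34 in WT replicates 1 to 3 and 0.51, 0.63 and −0.38 in *rde-4*. It was 0.19, 0.65 and 0.18 in *age-1* and 0.92, 0.40 and 0.23 in the double mutant. The groups overlap in both backgrounds, and the WT libraries low in these genes were those low in sperm genes, for which the levels were −1.42, −0.36 and −1.06 in WT and 0.31, 0.48 and −0.53 in *rde-4*. With the sperm level of each library as a covariate, the median of the 887 became 0.11 and that of the 31 was 0.77. The sperm level itself differed between strains, so this covariate overlaps with the genotypes and can take up part of a change due to the *rde-4* mutation. The cause of the smaller median was not tested. Of the 139 higher genes of the whole list, 135 were called with this covariate too. In all, 218 genes of the list were then higher and 82 lower.

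**Figure D2:**
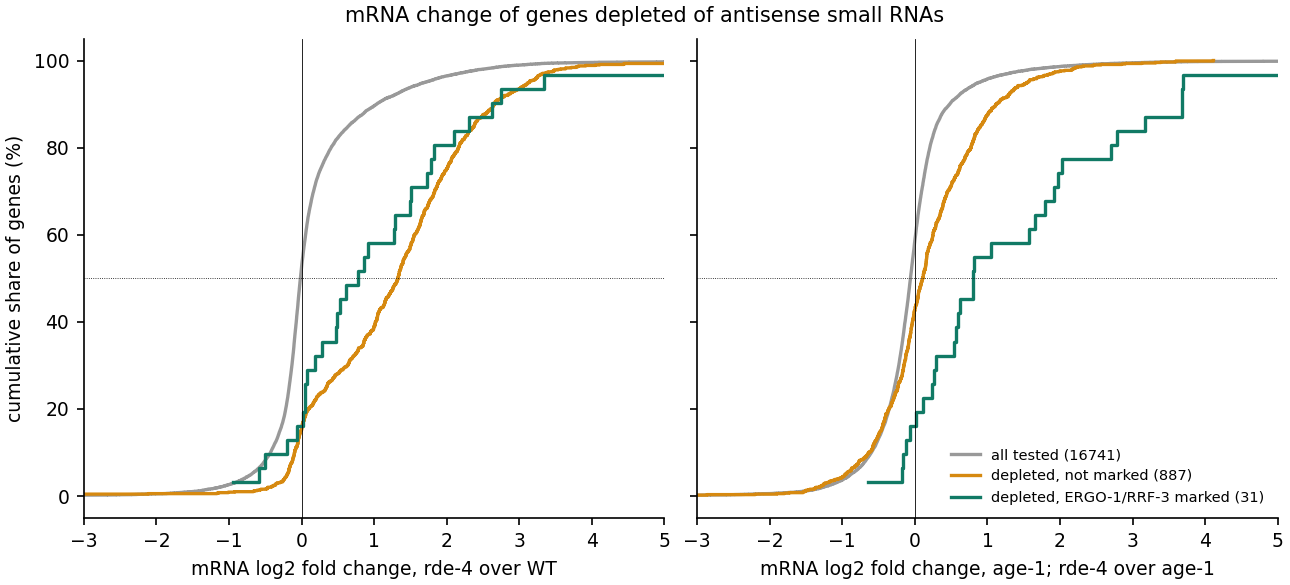
Cumulative share of genes (vertical axis, percent) by mRNA log2 fold change (horizontal axis) in the WT background (left) and the *age-1* background (right), for all 16741 genes tested (grey), 887 depleted genes without the mark (orange) and 31 depleted genes marked as ERGO-1 or RRF-3 targets (green). The orange line crosses 50% at 1.33 on the left and 0.11 on the right, and the green line at 0.77 and 0.80.

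**Figure D3:**
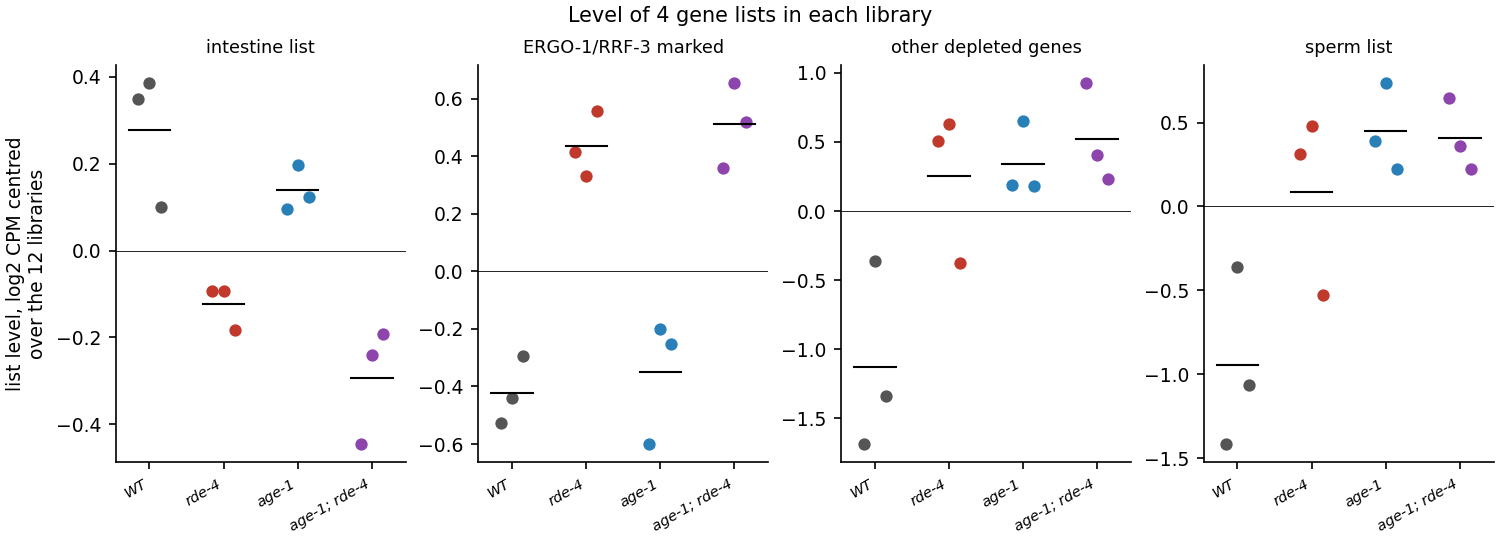
Level of 4 gene lists in each of the 12 libraries (points, log2 CPM centred over the libraries, mean over genes for the intestine and sperm lists and median for the depleted lists) with the mean of each strain as a bar. The marked genes are above 0 in all 6 libraries without RDE-4 and below 0 in the other 6, the intestine list is the other way round, and the other depleted genes and the sperm list are lowest in WT replicates 1 and 3.

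Several targets of ERGO-1 or RRF-3 rose by like amounts in both backgrounds. *saeg-2* (T23G5.6), at 9240363 to 9242514 of chromosome III, whose product is a nuclear partner of the cGMP-dependent kinase EGL-4, was at 8.20, 10.1 and 9.48 CPM in WT and 57.8, 56.3 and 51.8 CPM in *rde-4*. In *age-1* it was at 8.87, 9.17 and 8.21 CPM and in the double mutant at 44.2, 46.0 and 53.5 CPM. The groups are far apart, with a term of 2.52 (SE 0.09, adjusted p = 2.89e-09), and T23G5.10, which overlaps it, rose as well (2.23). *saeg-2* is on the study's depleted list in the WT background only and does not carry the mark. ZK402.5 and ZK402.3 (chromosome X from 1398824 to 1401359 and from 1402025 to 1403011), marked neighbours without gene names, rose by 2.96 (SE 0.25, adjusted p = 5.59e-05) and 2.67 (SE 0.20, adjusted p = 1.76e-05). ZK402.5 was at 0.26, 0.18 and 0.40 CPM in WT and at 0.25, 0.27 and 0.40 CPM in *age-1*, and between 1.32 and 3.22 CPM in the 6 libraries without RDE-4. W04B5.1 (1.87), F39E9.7 (1.53) and K02E2.6 (1.17), also marked and without gene names, had SEs of 0.12 to 0.16. Of 22 tested genes on a separate list of known ERGO-1 targets, which partly overlaps the marked genes, 10 were higher and none was lower (13 and 0 at an unadjusted p under 0.05, 10 and 0 with DESeq2), with a median of 0.94. The F-box gene *fbxa-52*, a marked gene, was listed at 0 in the 3 WT libraries and in *age-1* replicates 1 and 3, at 0.04 CPM in *age-1* replicate 2, and between 0.32 and 0.66 CPM in all 6 libraries without RDE-4 (adjusted p = 0.001).

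Among protein-coding genes that averaged at least 50 normalized counts and whose groups were separate in both backgrounds, the 10 with the largest rise were Y36E3A.2, F59A6.2, C15H7.4, *his-70*, F14F7.5, ZK402.5, *tag-191*, C17D12.5, ZK930.4 and C05B5.12, with terms from 2.86 to 4.27. Y36E3A.2 (chromosome V from 15426041 to 15426970), on the depleted list, was at 0.15, 0.58 and 0.09 CPM in WT and 5.55, 7.90 and 4.33 CPM in *rde-4*. It was at 0.33, 0.64 and 0.30 CPM in *age-1* and 7.93, 6.57 and 7.59 CPM in the double mutant, a term of 4.27 (SE 0.38, adjusted p = 6.79e-05). Every library without RDE-4 thus exceeded every other library, and the change was alike in WT (4.44) and *age-1* (4.11). *his-70* (chromosome III from 4059715 to 4060119), which encodes a histone H3 variant, was at 0.52, 1.39 and 0.98 CPM in WT and 17.6, 23.4 and 6.80 CPM in *rde-4*. It was at 4.82, 5.83 and 3.00 CPM in *age-1* and 32.2, 18.3 and 16.5 CPM in the double mutant. The *age-1* libraries were themselves above WT, and the term was 3.14 (SE 0.43, adjusted p = 0.002), made of 4.05 in WT and 2.30 in *age-1*. The same shape, a larger change in WT than in *age-1*, was seen for C15H7.4 (4.35 and 2.56), *tag-191* (3.78 and 2.21), ZK930.4 (3.80 and 1.98) and C05B5.12 (3.97 and 1.94). F14F7.5 lost its call in 4 of 21 alternatives, and the others of the 10 kept theirs in each alternative that gave a value.

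**Figure D4:**
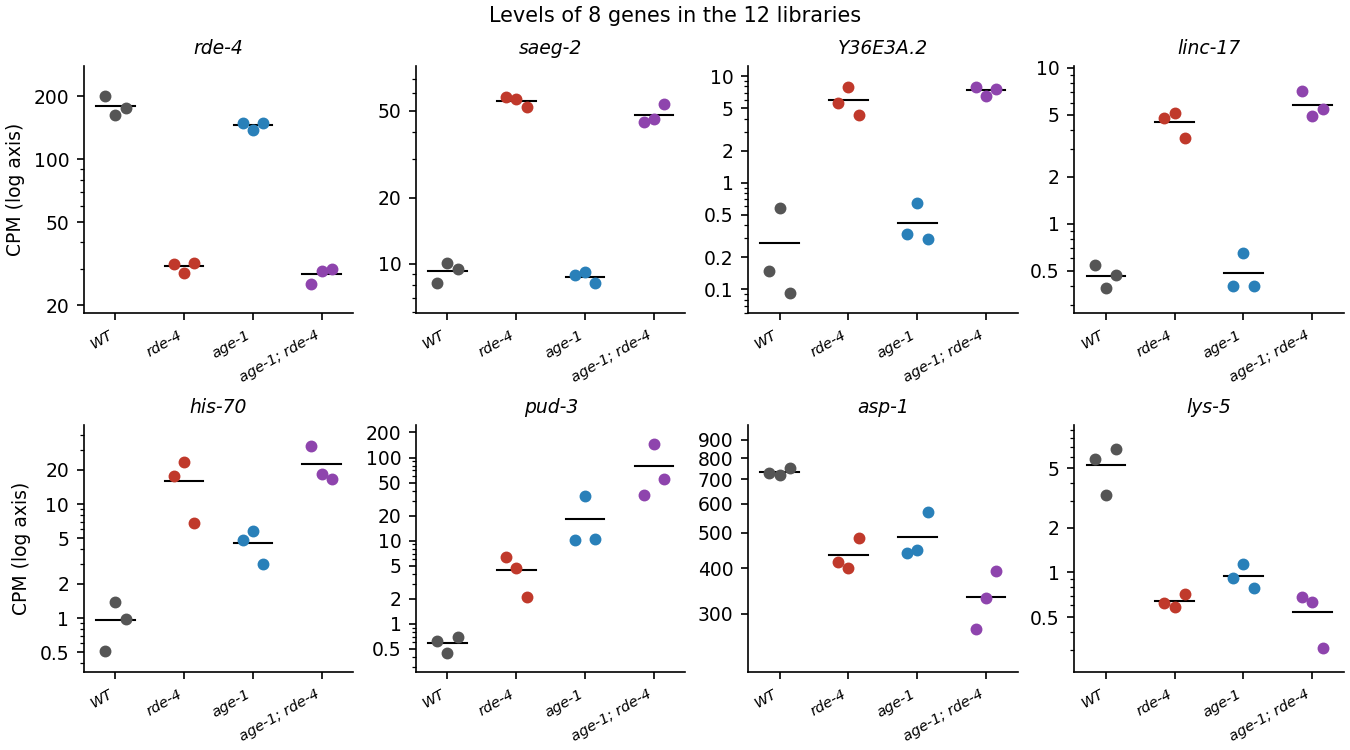
Level of 8 genes (vertical axes, CPM on a log scale) in the 3 libraries of each strain (points) with the strain mean (bar). The transcript of *rde-4* and that of *asp-1* are lower, and *saeg-2*, Y36E3A.2, *linc-17*, *his-70* and *pud-3* are higher, in the libraries without RDE-4 than in those of the same background with it, and *lys-5* is highest in the 3 WT libraries.

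A few annotated noncoding transcripts were among the higher genes. Of the 291 higher genes, 256 were protein-coding, 15 (5.15%) were noncoding RNAs and 12 (4.12%) were pseudogenes, with 8 identifiers not matched to the annotation, where 2.34% and 3.82% of all genes tested were noncoding RNAs and pseudogenes. Of the 129 lower genes, 128 were protein-coding and 1 was not matched. Of 75 long intergenic noncoding RNAs tested, 8 were higher (10.7%, against 1.74% of all genes tested) and none was lower (12 and 0 at an unadjusted p under 0.05, 10 and 0 with DESeq2), although their median was 0.01. *linc-17* (chromosome II from 3596226 to 3596812) was at 0.54, 0.38 and 0.46 CPM in WT against 4.77, 5.15 and 3.57 in *rde-4*, and at 0.40, 0.64 and 0.40 CPM in *age-1* against 7.09, 4.92 and 5.44 in the double mutant. Its term was 3.43 (SE 0.20, adjusted p = 1.35e-06), with no overlap between the libraries. *linc-45* and *linc-19* lie next to each other on chromosome III, from 3151809 to 3152607 and from 3150222 to 3151352, and rose by 3.42 and 2.95. The marked gene C44B11.6 begins beyond *linc-45*, at 3153148, and rose by 1.74. *linc-41* and *linc-21* are neighbours on chromosome IV and rose by 2.98 and 2.16. Noncoding RNAs that rose were rare transcripts, all but 1 of the 8 below 10 CPM in every library.

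Among the called genes there were 22 pairs of higher genes within 10 kb of each other, which hold 38 genes, and 2 pairs of lower genes, which hold 4. Of the 283 higher genes with a position, 13.4% thus had a higher gene as their nearest tested neighbour on either side within 10 kb, against 3.12% of all 16485 genes with a position, and for lower genes the shares were 3.12% and 1.43%. In 2 of the 22 pairs the genes overlap. The largest group was the *pud* cluster on chromosome V, chosen here after its values were seen. The *pud* genes encode small proteins found to be more abundant in worms with reduced IIS, and their function is not known. *pud-3* (from 2324634 to 2325152) was at 0.62, 0.44 and 0.69 CPM in WT against 6.36, 4.75 and 2.07 in *rde-4*, and at 10.1, 34.7 and 10.4 CPM in *age-1* against 35.5, 147 and 55.4 in the double mutant. The strains thus stood in the order WT, *rde-4*, *age-1*, double mutant without overlap, and the *rde-4* term was 2.46 (SE 0.44, adjusted p = 0.012). *pud-4* rose by 2.40, and *pud-1.1*, *pud-1.2*, *pud-2.1* and *pud-2.2* rose by 1.49 to 1.55. The copies of *pud-1* and of *pud-2* are nearly identical and may share reads, so these 4 genes do not give 4 separate measurements.

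Called genes were spread unevenly over the chromosomes. On the X chromosome 8 of 2250 genes tested were higher (0.356%) and 29 were lower (1.29%). On the autosomes 275 of 14216 were higher (1.93%) and 99 lower (0.696%). The depleted list holds 1.2% of the genes tested on X and 6.27% of those on autosomes. Without the depleted genes, which are 27 of the 2250 tested on X and 891 of the 14216 on autosomes, 4 genes were higher on X and 140 on autosomes. Chromosome III carries *rde-4*, and sequence that came with *ne301* cannot be told apart there from loss of RDE-4. Within 2 Mb of *rde-4*, 18 of 763 genes tested were higher (2.36%) and 3 lower besides *rde-4*, and elsewhere on the chromosome 32 of 1728 (1.85%) were higher and 10 lower. *saeg-2* at 974.8 kb, C15H7.4 at 561.4 kb, C05B5.12 at 229.6 kb and K10G9.2 at 67.3 kb from *rde-4* are among these 18.

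Part of a list of genes of the intestine, the worm's organ of digestion and fat storage, was lower without RDE-4. Of 16 intestine genes tested, 7 were lower (43.8%) and none was higher (10 and 0 at an unadjusted p under 0.05, 9 and 0 with DESeq2), against 0.771% of all genes tested. The median was −0.43, with −0.41 in WT and −0.36 in *age-1*, and 15 of the 16 were below 0. *asp-1* (chromosome V from 19049562 to 19050752), an aspartyl protease gene, was at 730, 722 and 750 CPM in WT and 415, 401 and 484 CPM in *rde-4*. It was at 440, 448 and 571 CPM in *age-1* and 273, 331 and 393 CPM in the double mutant, and the groups of each background do not overlap. Its term was −0.65 (SE 0.10, adjusted p = 0.005). The intermediate filament genes *ifb-2* (−0.66) and *ifc-2* (−0.58), the oligopeptide transporter gene *pept-1* (−0.59), the acid phosphatase gene *pho-1* (−0.44) and *vha-6* (−0.41), a subunit of the proton pump of the gut lumen, fell too, with SEs of 0.08 to 0.14. *pept-1* was at 120, 110 and 105 CPM in WT against 92.0, 81.3 and 79.7 in *rde-4*, and at 86.3, 81.8 and 86.1 CPM in *age-1* against 59.8, 38.2 and 51.0 in the double mutant. *cpr-5*, which encodes a protease of the cathepsin B kind, fell by 1.02 on the log2 scale (SE 0.23, adjusted p = 0.033), and in the WT background its groups overlapped. The intestinal GATA factor gene *elt-2* had a term of −0.29 (SE 0.12, adjusted p = 0.313) and the esterase gene *ges-1* of −0.09 (SE 0.10, adjusted p = 0.842), so 2 widely used markers of intestinal identity did not pass the test. The mean level of the 16 genes was 0.35, 0.39 and 0.10 in WT and −0.09, −0.09 and −0.18 in *rde-4*. It was 0.10, 0.20 and 0.12 in *age-1* and −0.45, −0.24 and −0.19 in the double mutant, and all 6 libraries without RDE-4 lay below all 6 with it. Genes of another tissue lay on the same side of 0, since all 15 muscle genes tested were below 0 with a median of −0.34, none passed the test in edgeR (4 lower at an unadjusted p under 0.05, 2 with DESeq2), and their mean level lay between −0.72 and 0.70 in the 6 libraries with RDE-4 and between −0.77 and 0.04 in the 6 without it, which overlap. Of 48 genes of the large ribosomal subunit 46 were below 0, with a median of −0.19. The part of either list in the intestine result was not tested. The count of 7 became 4, 3, 4 and 4 without WT replicate 2, *age-1* replicate 3, double mutant replicate 2 and *rde-4* replicate 3, and 4 with no filter on low counts.

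**Figure D5:**
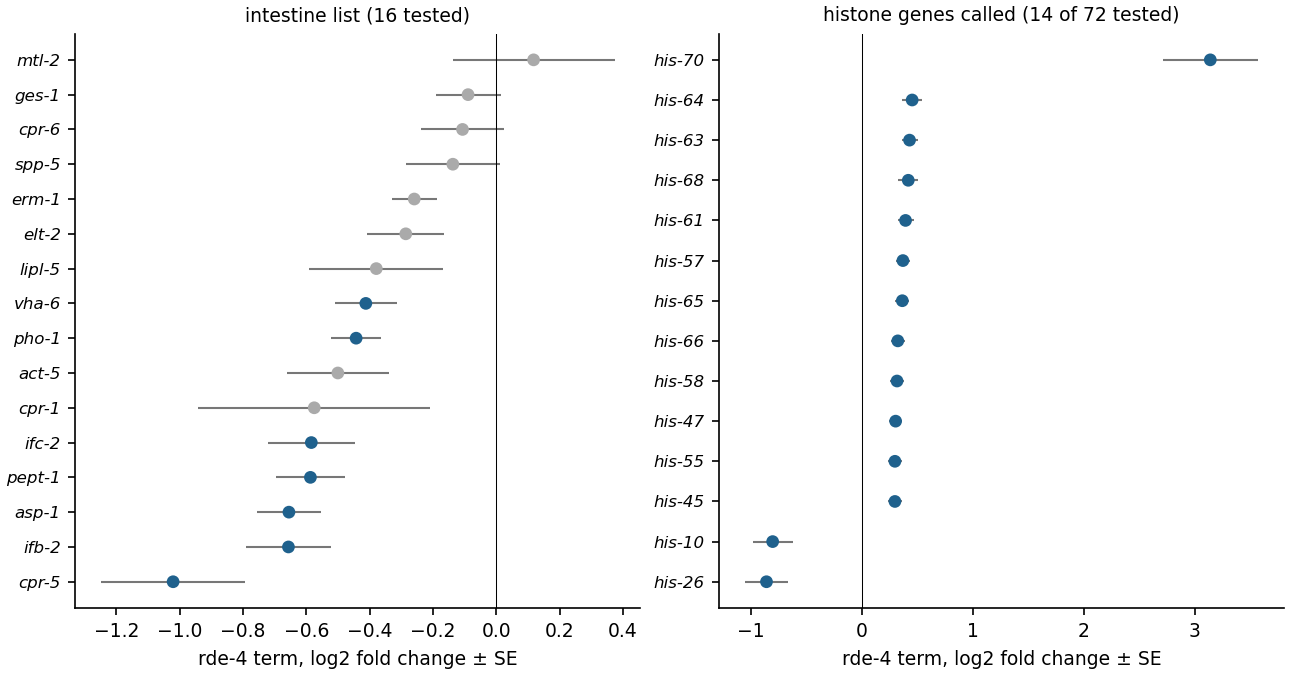
The *rde-4* term of the 16 intestine genes tested (left) and of the 14 histone genes called (right), as log2 fold change (horizontal axis, points) with its SE (bars), blue where the adjusted p was under 0.05 and grey where it was not. The intestine genes lie between −1.02 and 0.12 with 15 of 16 below 0, and *his-70* at 3.14 lies apart from the other 11 higher histone genes, which lie between 0.30 and 0.46.

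Of 8 lysozyme genes tested, 1 was lower and 0 were higher (3 and 0 at an unadjusted p under 0.05, 2 and 0 with DESeq2). The list moved in both directions. *lys-6* (−1.34) and *lys-4* (−0.71) were below 0, *lys-7* (0.62) and *lys-2* (0.31) were above 0, and these did not pass the test. The lysozyme gene that passed, *lys-5*, was at 5.79, 3.32 and 6.71 CPM in WT and 0.62, 0.59 and 0.71 CPM in *rde-4*. It was at 0.92, 1.15 and 0.79 CPM in *age-1* and 0.69, 0.63 and 0.31 CPM in the double mutant. The WT libraries stand apart from all others, and the term of −1.95 (SE 0.41, adjusted p = 0.027) was made of −3.04 in WT and −0.81 in *age-1*. The call was lost in 6 of 21 alternatives. Of 121 C-type lectin genes tested, a family with members that respond to pathogens, 6 were lower (4.96%) and 1 was higher (0.826%), against 0.771% and 1.74% of all genes tested, and the median was −0.21. *clec-204* was at 4.40, 3.07 and 4.15 CPM in WT against 1.45, 1.49 and 1.39 in *rde-4*, and at 2.01, 2.50 and 2.67 CPM in *age-1* against 1.20, 0.82 and 0.66 in the double mutant. It fell alike in both backgrounds (−1.42 in each, term −1.42, SE 0.18, adjusted p = 0.001). *clec-10* (−1.43), *clec-166* (−1.82) and *clec-53* (−0.88) each lost the call in part of the alternatives. The count of 6 lectin genes was between 2 and 7 with a library left out, 10 with the collagen level as a covariate and 12 with DESeq2.

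Other genes with large falls were C14C6.2 (−1.88), R11E3.2 (−1.19), *ugt-30* (−1.11), a UDP-glucuronosyltransferase gene, T15B7.1 (−1.06), F48B9.3 (−1.01) and C16C8.20 (−0.99). C16C8.20 (chromosome II from 3446947 to 3448168) was at 7.34, 6.67 and 6.23 CPM in WT against 2.95, 3.61 and 3.30 in *rde-4*, and at 5.51, 5.64 and 4.99 CPM in *age-1* against 2.42, 2.74 and 3.24 in the double mutant. Its 2 groups of 6 are separate, and its SE of 0.12 was small for this set (adjusted p = 0.001). The nuclear hormone receptor gene *nhr-114* fell by 0.50 on the log2 scale (SE 0.08, adjusted p = 0.006), with −0.51 in WT and −0.48 in *age-1*. A few abundant metabolic genes, named after their values were seen, moved by small and even amounts. The acyl-CoA dehydrogenase gene *acdh-1* was between 1371 and 1729 CPM in the 6 libraries with RDE-4 and between 1169 and 1380 CPM in those without it, a term of −0.34 (SE 0.07, adjusted p = 0.022). Those of the enoyl-CoA hydratase gene *ech-6* and of *gcst-1* and *gldc-1*, both of the glycine cleavage system, were −0.38, −0.33 and −0.35.

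Histone genes moved in both directions. Of 72 tested, 12 rose (16.7%) and 2 fell (2.78%), against 1.74% and 0.771% of all genes tested (27 above and 17 below 0 at an unadjusted p under 0.05, 21 and 10 with DESeq2), and the median was 0.02. Besides *his-70*, the 11 higher genes rose by 0.30 to 0.46, for example *his-64* by 0.46 (SE 0.09, adjusted p = 0.018). *his-64* was at 2405, 1791 and 1972 CPM in WT and 2628, 2397 and 2494 CPM in *rde-4*, which overlap, and higher in all 3 double mutant libraries than in *age-1*. *his-10* and *his-26*, 2 histone genes of a cluster on chromosome II, fell by 0.80 and 0.86 on the log2 scale. *his-10* was at 256, 285 and 257 CPM in WT against 79.9, 103 and 136 in *rde-4*, and at 222, 203 and 229 CPM in *age-1* against 169, 182 and 189 in the double mutant. Histone genes of 1 type are nearly identical and the counts of copies may be split by the mapping, so single histone genes other than *his-70* are uncertain. Of the histone genes 5, 6 and 6 were higher when *age-1* replicates 1 and 3 and double mutant replicate 2 were left out in turn, 8 without WT replicate 2, 8 with no filter and 18 without WT replicate 1.

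Of 35 sperm genes outside the MSP family, 1 was higher and none was lower on the average over both backgrounds. Of all genes tested, 1.74% were higher and 0.771% lower. At an unadjusted p under 0.05, 10 of the 35 were higher and 0 lower, against 6.5% and 6.85% of all genes tested. DESeq2 called 8 higher and 0 lower. The median of the 35 was 0.21, with medians of 0.81 in WT and −0.09 in *age-1*. None of 33 *msp* genes, which encode the motor protein and signal of sperm, passed the test in edgeR (1 in each direction at an unadjusted p under 0.05, and 1 higher with DESeq2). Their median was −0.15 in the *rde-4* term, 0.58 in WT and −0.92 in *age-1*. Of 3 MSP-domain genes that the study names, *dct-9* (2.12, SE 0.36, adjusted p = 0.009) and *ssp-16* (2.07, SE 0.38, adjusted p = 0.012) were higher, while *melo-3* lay just beyond the threshold in edgeR (1.14, SE 0.28, adjusted p = 0.051) and DESeq2 called all 3. *dct-9* was at 0.73, 1.81 and 1.22 CPM in WT against 10.9, 11.7 and 4.65 in *rde-4*, and at 4.41, 5.04 and 2.46 CPM in *age-1* against 14.7, 9.24 and 7.95 in the double mutant. Its groups were separate within each background. The Argonaute genes *alg-3* (0.65, SE 0.38, adjusted p = 0.546) and *alg-4* (0.47, SE 0.37, adjusted p = 0.715) did not pass the test, nor did the MSP receptor gene *vab-1* (0.13, SE 0.15).

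Genes of the pathways around RDE-4 were read against all genes tested, of which 1.74% were higher and 0.771% lower. At an unadjusted p under 0.05 these shares were 6.5% and 6.85%. With shares this small a short list can hold no called gene, so a count of none says little about a pathway. Of 22 other genes of Dicer complexes and primary small RNAs, 21 Argonaute genes and 22 genes of secondary small RNAs, none passed the test in edgeR or in DESeq2. At an unadjusted p under 0.05 there were 1 higher and 1 lower gene in the first list and none in the others. None of 19 genes of the IIS cascade passed (1 lower at an unadjusted p under 0.05 and 1 lower with DESeq2), and none of 30 genes activated by the FOXO factor DAF-16 (4 higher and 1 lower, and 3 higher with DESeq2). The average can hide changes in 1 background, as in *lea-1* and *cyp-35B1*, picked from the 30 after their values were seen. In WT they rose by 1.33 (adjusted p = 0.006) and 2.09 (adjusted p = 0.008). In *age-1* their changes were −0.75 (adjusted p = 0.201) and 0.04 (adjusted p = 0.983). The interaction passed for *lea-1* (−2.09, adjusted p = 0.027) and not for *cyp-35B1* (−2.05, adjusted p = 0.190). Of 13 genes repressed by DAF-16, *gcy-18*, a receptor guanylyl cyclase gene of a thermosensory neuron, was higher by 1.07 (SE 0.20, adjusted p = 0.016). Of 25 immune genes under the kinase PMK-1, *irg-5* (1.88, SE 0.39, adjusted p = 0.025) and *irg-4* (0.89, SE 0.16, adjusted p = 0.011) were higher. *irg-5* was at 5.22, 9.77 and 8.35 CPM in WT against 37.9, 83.0 and 62.4 in *rde-4*, and at 8.71, 6.85 and 12.4 CPM in *age-1* against 16.7, 17.1 and 14.4 in the double mutant. It rose by 2.97 in WT and by 0.79 in *age-1*, without overlap in either. *irg-4* was highest in the double mutant, at 102, 88.9 and 62.8 CPM against 40.6, 32.9 and 53.0 CPM in *age-1*, 29.6, 49.4 and 34.9 CPM in *rde-4* and 20.8, 23.8 and 22.1 CPM in WT. Of 115 collagen genes 1 was higher and 0 were lower, no more than the shares of all genes tested. The higher gene was *col-95* (1.34, SE 0.18, adjusted p = 0.002), at 8.86 to 16.8 CPM with RDE-4 and 20.1 to 41.6 CPM without it. *her-1*, the male sex-determining signal, was the only called gene of 9 tested from a list of male-enriched genes. It rose by 1.17 (SE 0.26, adjusted p = 0.035) at levels under 1 CPM in every library. Its call did not hold in 9 of the 20 alternatives that gave a value. The list had no shared direction, with 5 genes above 0, 4 below 0 and a median of 0.02.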

How the data were processed

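The deposited table, whose read counts per gene the authors made by mapping stranded, rRNA-depleted reads to WBcel235 with HISAT2 2.0.5 and StringTie, holds 46653 identifiers in 12 columns (45305 matched by locus tag, 876 by transcript, 472 not matched). The tests used edgeR 4.0.16 under R 4.3.3 on these raw counts. The filter on low counts was filterByExpr with the 4 strains as groups, libraries were scaled by TMM, and *age-1* and *rde-4* genotype were fitted as additive terms (glmQLFit, glmQLFTest, two-sided, 9 residual degrees of freedom), with Benjamini-Hochberg adjustment over the 16741 genes. Changes within a background and their interaction came from 1 model of the 4 strains. The labels do not say whether same-numbered libraries were grown together, so the main model left the replicate number out. CPM are TMM-scaled, and list levels use log2 CPM with a prior count of 2. No set test was run. Alternatives were RLE, DESeq2 1.42.0, other filters and models, 2 covariates and each library left out. The steps were tested on simulated data. Named genes were those the study names, the 10 protein-coding and up to 3 other genes per direction with the largest change (adjusted p under 0.05, mean of 50 normalized counts, separated groups in both backgrounds), up to 4 interaction genes and up to 4 called members per list. Comparison, members and lists were chosen with earlier results of these data known. No sequence is shown, and some named genes are not reported here.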

Additional observations from a re-analysis of the deposited data

Results flagged for a closer look

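Outside the called set, 4 genes were named for the largest interaction among genes that averaged at least 50 normalized counts. In these the change between strains with and without the *rde-4* mutation differed between backgrounds by the interaction test (edgeR, adjusted p given, change in *age-1* minus change in WT). Each genotype was 1 strain, so an effect of RDE-4 loss that depends on the background and a difference fixed in a single strain cannot be told apart. C32D5.8 (4.71, SE 0.15, adjusted p = 3.42e-09) and the noncoding C32D5.18 within it (4.99, SE 0.74, adjusted p = 0.025) were low in the 3 *rde-4* libraries alone. Y58A7A.3 (−6.13, SE 0.83, adjusted p = 0.014) and its neighbour Y58A7A.4 (−5.74, SE 0.87, adjusted p = 0.027) were low in the 3 WT libraries alone. In the *rde-4* term their adjusted p-values were 0.239, 0.295, 0.228 and 0.208, so the average over both backgrounds passed over all 4.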

How the results depend on the processing

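The direction of the *rde-4* term held for all 55 called genes chosen by the rule for named genes under every alternative that gave a value, and 34 of them kept the call throughout, while 21 lost it at least once. The number of calls depended on the processing. Higher and lower genes numbered 506 and 213 with the average contrast of the 4-strain model, 632 and 332 with DESeq2, 608 and 319 with the collagen level as a covariate, 179 and 66 with no filter on low counts and 598 and 787 with the sperm gene level as a covariate. Of the 291 and 129 genes, 291 and 129 were called by DESeq2, and 285 and 119 with the sperm covariate. Higher and lower small RNA-depleted genes numbered 246 and 4, 296 and 6, 296 and 7, 89 and 1, and 218 and 82 under the same 5 settings, and 1 was lower with RLE, with a mean of 50 counts and with protein-coding genes alone. Their median of 0.64 became 0.12 with the sperm covariate. The 19 genes with an interaction became 338 with DESeq2, 2 with the collagen covariate, 10 with no filter and 1 with the sperm covariate. Both covariates overlap with the genotypes, and the cause was not tested. With the replicate number as a block, 303 genes were lower and 86 had an interaction. Of 18 pairs of same-numbered libraries 12 had a correlation over 0.1, and 10 of 12 libraries correlated best with their own number, a hint from the data and not the design. With each library left out in turn, higher genes ranged from 158 to 346, lower genes from 38 to 130, depleted higher genes from 81 to 183, depleted lower genes from 0 to 2, interactions from 5 to 50 and the median from 0.49 to 0.77. Rare transcripts limit precision: genes under 50 normalized counts on average made up 3677 of those tested.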

Other observations

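Most ribosomal protein genes had an *rde-4* term slightly below 0. Of 48 genes of the large subunit, 46 had an *rde-4* term below 0, with a median of −0.19, and of 30 of the small subunit 29 did, with a median of −0.18, against −0.03 for all genes tested. Only *rpl-3* passed the test in edgeR (−0.24, SE 0.06, adjusted p = 0.040), while 26 and 18 were lower at an unadjusted p under 0.05 and 8 and 5 with DESeq2. These genes take a large share of all counts, so their values are not independent of the scaling of the libraries.

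F-box genes of the *fbxb* family and early embryo markers differed between populations of 1 strain. None of 92 *fbxb* genes passed the test in edgeR (9 higher at an unadjusted p under 0.05, 1 with DESeq2), though 85 were above 0 with a median of 0.87, and medians of 0.05 in WT and 1.92 in *age-1*. Their mean level was −0.88, 1.26 and 0.86 in double mutant replicates 1, 2 and 3 and −1.07, −1.31 and −0.69 in *age-1*.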
